A study of Camponotus floridanus with 15 samples.

Results

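Only 4 genes of the carpenter ant *Camponotus floridanus* kept an even transcript level in embryo, both larval instars and early pupa and then stood at a clearly lower level in late pupae of both worker castes, in minors and in the male. They are CFLOG015738.2, CFLOG005529.2, CFLOG008447.2 and CFLOG010468.1, out of 18620 genes with the ID prefix CFLOG and 18979 rows in all. They were chosen by their values. Each library was divided by a scale factor, and each group was given the mean of log2(rescaled RPKM + 1), where RPKM is a read number scaled by the length of the gene and by the size of the library. The 4 early group means of a gene had to span under 1.5 on this log2 scale. All of them also had to lie at least 1.5 above each of the 4 late group means, which is 2.83-fold on the rescaled RPKM + 1 scale. The drop between the early and the late groups is therefore what chose these genes. It is given below as a description, without a test.

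The series holds poly(A) RNA from whole bodies in 15 strand-specific libraries. They cover 8 groups. The 4 early ones are embryo, larva of instar 1, larva of instar 4 and early pupa, and the 4 late ones are late pupa minor and late pupa major, which are pupae of the smaller and of the larger worker caste, then minor and male. Male has 1 library and each other group 2, so there are 8 early and 7 late libraries. All animals came from plaster nests kept at 25 °C and 50% humidity on a diet of water, sugar water and an artificial ant food. No mutant or treatment is part of the design, and the labels give neither the age of the pupae and adults nor the number of animals or colonies behind a library. The spread between replicates may therefore be technical, and p-values measure that spread alone.

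Ants undergo complete metamorphosis. In the pupa most larval tissue is broken down and the adult body is built from groups of cells set aside earlier, so early pupae still grow and shape organs while late pupae hold a nearly finished adult with its cuticle. Workers are wingless females that differ in body size between the minor and the major caste, and males are the short-lived winged sex. The deposited table pairs no ID with a gene name, and none (0) of its IDs matched the 14020 genes of the RefSeq annotation of the Cflo_v7.5 assembly. The role, the position and the sequence of the 4 genes are not given here for that reason.

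The 4 genes did not go silent as a group. Only CFLOG008447.2 averaged under 1 rescaled RPKM in all 4 late groups. CFLOG015738.2 did so in 3 of them, and CFLOG005529.2 and CFLOG010468.1 in 0. In whole bodies, fewer cells of a type and less RNA per cell cannot be told apart. Reads behind the values were recovered from the steps of the RPKM values. They were totalled over the 12074 genes whose length could be recovered in this way. The shallowest library was late pupa minor replicate 2, with 2490000 reads, and the deepest was early pupa replicate 1, with 6950000. The replicates of a group correlated at 0.923 (late pupa minor) to 0.974 (early pupa) across genes, which are not independent replicates.

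CFLOG015738.2, with a recovered length of 1899 nt, had the widest gap between the early and the late groups. In rescaled RPKM it stood at 16.0 and 14.7 in embryo, 10.1 and 9.17 in instar 1 larva, 9.35 and 15.5 in instar 4 larva, and 9.50 and 29.7 in early pupa. It then stood at 1.21 and 1.74 in late pupa minor, 0.535 and 0.271 in late pupa major, 0.0300 and 0.0448 in minor, and 0.162 in male. No late library reached the lowest early one, and the late groups themselves lay far apart. The minor libraries held only 2 and 1 reads of this gene and the male library 10, against 270 to 1411 reads in the early libraries. The early pupa mean, 19.6 ± 14.3 (SD, n = 2), rested on libraries that were themselves far apart. The lowest early mean, that of instar 1 larva, lay 2.11 above the highest late mean, that of late pupa minor.

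CFLOG005529.2 was the most abundant of the 4 and the most even before the drop. In rescaled RPKM it stood at 43.1 and 39.3 in embryo, 35.3 and 32.9 in instar 1 larva, 27.8 and 42.0 in instar 4 larva, and 32.5 and 33.5 in early pupa. It stood at 5.27 and 11.6 in late pupa minor, 11.2 and 8.39 in late pupa major, 4.18 and 2.92 in minor, and 4.22 in male. The early means spanned only 0.31 on the log2 scale. This gene stayed well detected to the end, with 43 to 194 reads in each late library, and its recovered length was 1254 nt. The gap between the early pupa mean and the late pupa major mean was 1.66.

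CFLOG008447.2 was the least abundant. In rescaled RPKM it stood at 11.2 and 10.1 in embryo, 8.77 and 9.06 in instar 1 larva, 9.49 and 10.04 in instar 4 larva, and 3.98 and 4.92 in early pupa. It stood at 0.361 and 1.03 in late pupa minor, 1.07 and 0.418 in late pupa major, 0.356 and 0.869 in minor, and 0.349 in male. Early pupa, at 4.45 ± 0.665 (SD, n = 2), already lay below every embryo and larval library, so this gene stood lower at both pupal stages than at the stage before. The late libraries held 10 to 26 reads each, and the libraries of all 4 late groups covered much the same range. The early means spanned 1.10, the gap was 1.66 and the recovered length was 1761 nt.

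CFLOG010468.1 had a lower mean at each successive early stage, although the libraries of the 2 larval instars overlapped. In rescaled RPKM it stood at 19.9 and 16.5 in embryo, 15.1 and 12.4 in instar 1 larva, 14.1 and 11.4 in instar 4 larva, and 7.59 and 9.59 in early pupa. It stood at 1.44 and 3.32 in late pupa minor, 2.07 and 1.99 in late pupa major, 1.13 and 0.976 in minor, and 1.24 in male. In rescaled RPKM both early pupa libraries lay below all embryo and larval libraries, and the adult libraries lay below all late pupa libraries. Neither order held in deposited RPKM, where instar 4 larva replicate 1 stood at 7.05, against 7.70 and 8.31 in early pupa, and male stood at 1.90, against 1.10 in late pupa minor replicate 1. It passed the rule by the least, with a gap of 1.55 and a span of 1.00, and its late libraries held 25 to 88 reads. Its recovered length of 2178 nt was the longest of the 4.

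**Figure D1:**
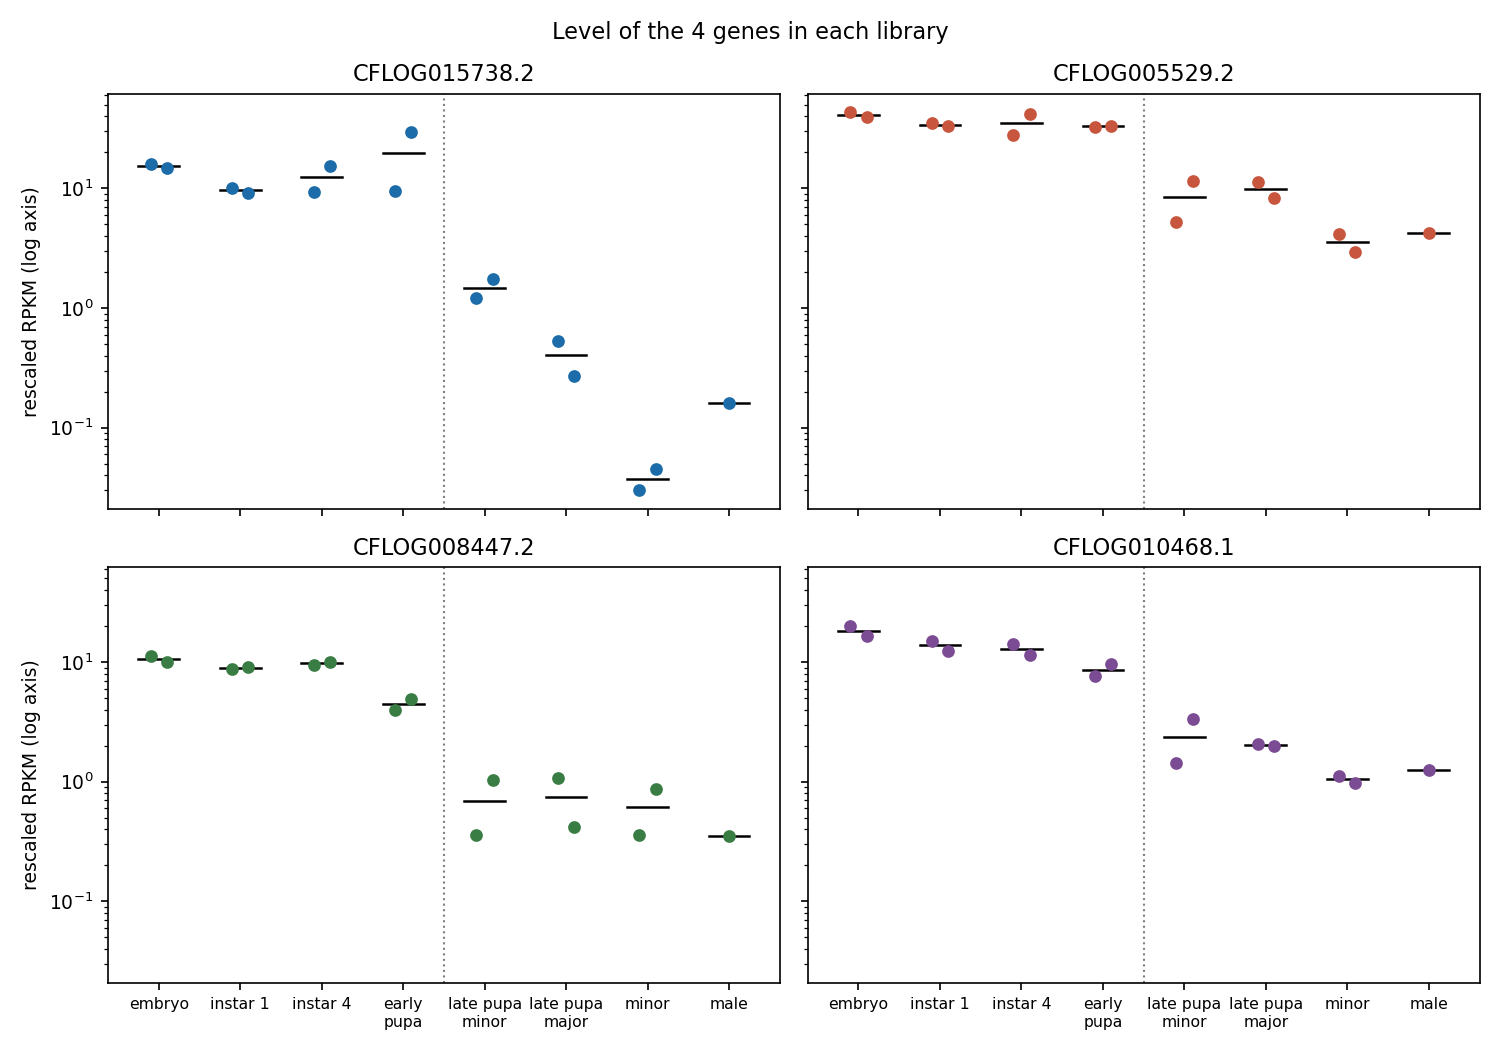
Rescaled RPKM of each gene on a log axis in the 8 groups, in the order of development. Points are libraries, black lines are group means and the dotted line separates the early from the late groups. CFLOG005529.2 runs nearly flat at 27.8 to 43.1 through the early groups, and CFLOG015738.2 stands at 0.0300 and 0.0448 in minor.

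Set against the 8 early libraries together, the late groups kept between 0.240% and 26.9% of the early level. These percentages come from reads pooled over libraries, which weighs each library by its size and its scale factor. They therefore differ from ratios of the group means. CFLOG005529.2, for example, averaged 8.44 rescaled RPKM in late pupa minor and 35.8 over the early groups. The intervals given here are exact 95% intervals (Clopper-Pearson on the recovered reads). Only counting error enters them, because reads were pooled over libraries and the spread between libraries was left out. These reads also carry no molecular identifiers and several can stem from 1 molecule, so the intervals can be too narrow. CFLOG005529.2 kept the most in every late group: 20.1% in late pupa minor (interval 17.8% to 22.6%), 26.9% in late pupa major (24.0% to 29.9%), 10.6% in minor (9.23% to 12.1%) and 11.5% in male (9.86% to 13.4%). CFLOG010468.1 kept 14.7% in late pupa minor, 14.5% in late pupa major, 7.80% in minor and 8.90% in male. CFLOG008447.2 kept 6.71%, 8.65%, 5.62% and 4.05% in the same 4 groups. CFLOG015738.2 kept 9.87% in late pupa minor, 2.88% in late pupa major, 0.240% in minor (0.0495% to 0.702%) and 1.15% in male (0.553% to 2.12%). The level of CFLOG015738.2 in minor rests on 3 reads in all, against 6697 in the early libraries.

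**Figure D2:**
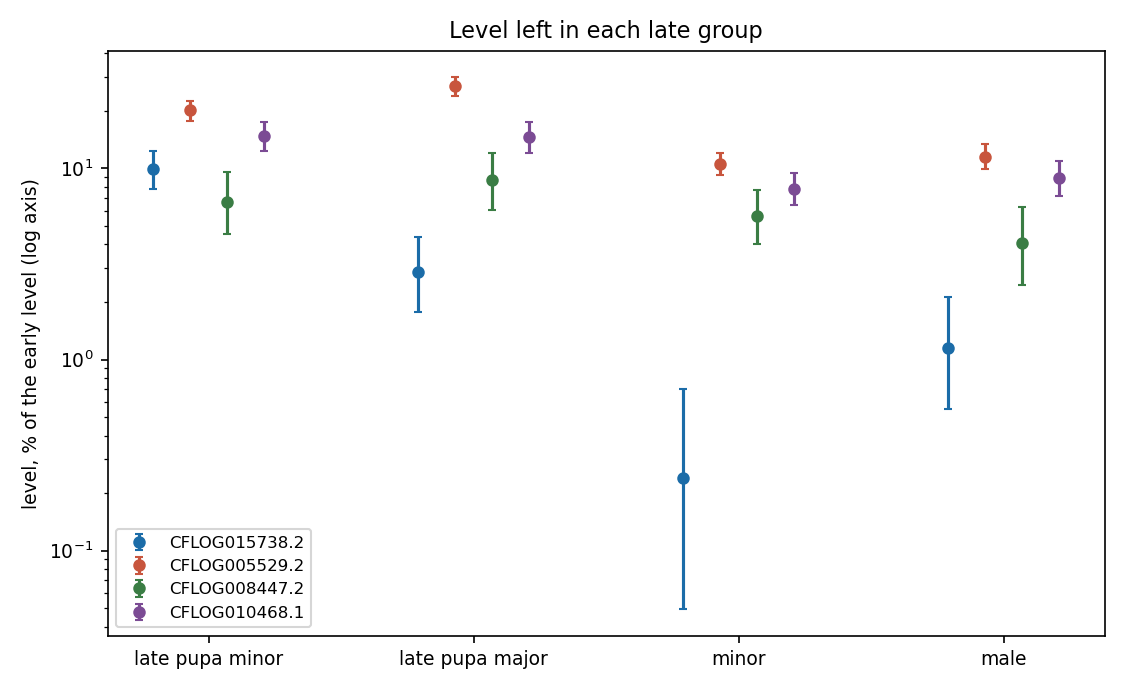
Level of each gene in the 4 late groups in percent of its level over the 8 early libraries, on a log axis, with exact 95% intervals from counting error. Reads were pooled over libraries. CFLOG005529.2 lies highest in each group, and CFLOG015738.2 lies lowest in late pupa major, minor and male.

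Much of the drop lay between early and late pupa, though not all of it. The rule itself asks for a step of at least 1.5 there, so a large step was set by the choice of genes. Its size is given as a description. The mean of CFLOG015738.2 in late pupa minor was 7.55% of that in early pupa, and in late pupa major 2.06%. CFLOG008447.2 stood at 15.6% and 16.7% of its early pupa mean in late pupa minor and late pupa major. For CFLOG005529.2 the values were 25.6% and 29.8%, and for CFLOG010468.1 27.7% and 23.6%. Inside the early groups, early pupa was the lowest for 3 of the 4 genes and embryo the highest for 3 of the 4. CFLOG015738.2 was the exception on both counts, with its highest early mean in early pupa and its lowest in instar 1 larva. Among all 4951 CFLOG genes with an even early level, which means a span under 1.5 and every early mean at 1.5 or more, early pupa was the lowest early group for 30.7% and embryo the highest for 27.4%.

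Whether the adults lay lower still depended on the scale. In rescaled RPKM the minor and the male means of all 4 genes both lay under both late pupa means, an order that 18.5% of the genes with an even early level shared. On the deposited scale only CFLOG015738.2 kept that order, which 3.01% of those genes then shared. For 3 of the 4, all but CFLOG008447.2, every minor and male library lay under every late pupa library after rescaling, which held for 10.3% of those genes, but on the deposited scale this held for 0 of the 4 and for 1.43% of those genes. The scale factor of the male library was 1.53, against 0.575 to 0.786 in the 4 late pupa libraries. In deposited RPKM, CFLOG010468.1 stood at 1.90 in male, against means of 1.504 in late pupa minor and 1.48 in late pupa major, and CFLOG005529.2 at 6.45 in male, against 5.35 and 7.07 in the same 2 groups. CFLOG008447.2 also lost the order of its rescaled means without late pupa minor replicate 2, late pupa major replicate 1 or minor replicate 1. The rule sets a ceiling on each late mean and does not use the order among the late groups. That ceiling acts on the highest late mean, which was a late pupa mean in all 4 genes. The choice of the genes can therefore hold their late pupa values down, and the tests below are not free of it. Differences between late groups were tested with limma on log2(rescaled RPKM + 1). The tests ran over all 10624 genes with at least 1 rescaled RPKM in at least 2 libraries. All 4 genes passed this filter, and they also passed it on the 7 late libraries alone.

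Between minor and late pupa minor, 2 of the 4 genes fell, so they were lower in minor. CFLOG015738.2 averaged 0.0374 ± 0.0104 rescaled RPKM in minor and 1.48 ± 0.377 in late pupa minor (SD, n = 2 each), a log2 difference of -1.25 ± 0.40 (SE) on the scale with 1 added, with a limma adjusted p of 0.03. CFLOG005529.2 averaged 3.55 ± 0.897 in minor and 8.44 ± 4.48 in late pupa minor (SD, n = 2 each), a difference of -0.98 ± 0.33 (limma adjusted p = 0.037). CFLOG010468.1 differed by -0.66 ± 0.28 (limma adjusted p = 0.09) and CFLOG008447.2 by -0.06 ± 0.28 (limma adjusted p = 0.9; 95% interval -0.66 to 0.54). Over all genes tested, 15.1% were lower in minor at an adjusted p under 0.05 and 18.1% were higher (1604 and 1924 genes), against 556 lower and 1212 higher on the deposited scale. Nothing is read from 2 genes of 4 against that share. Both calls were lost with no filter on low values (limma adjusted p = 0.069 and 0.06) and on the deposited scale, where the difference of CFLOG015738.2 was -0.93 (limma adjusted p = 0.22) and that of CFLOG005529.2 -0.74 (limma adjusted p = 0.38). Single libraries also ended them. CFLOG015738.2 missed the threshold without late pupa minor replicate 2 (0.12), minor replicate 1 (0.088) or minor replicate 2 (0.12), all limma adjusted p. CFLOG005529.2 missed it without late pupa minor replicate 2, where its difference was -0.47 (limma adjusted p = 0.33), and without minor replicate 2 (0.21). It also missed it, at 0.05 to 0.054, without any 1 of the 6 embryo, instar 1 larva and early pupa libraries. CFLOG010468.1 passed without late pupa minor replicate 1, with a difference of -1.09 (limma adjusted p = 0.016).

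At this depth and number of libraries, the test did not separate the castes of the late pupa by these genes. The test called 0 of the 4 between late pupa major and late pupa minor (limma, 0 also at an unadjusted p under 0.05), where 0.866% of all genes passed as higher in late pupa major and 0.602% as lower. CFLOG015738.2 came nearest, at 0.403 ± 0.187 rescaled RPKM in late pupa major and 1.48 ± 0.377 in late pupa minor (SD, n = 2 each). Its log2 difference of -0.82 ± 0.40 had a limma adjusted p of 0.24 and a 95% interval of -1.69 to 0.05. CFLOG005529.2 differed by 0.27 (interval -0.44 to 0.98), CFLOG008447.2 by 0.05 (-0.55 to 0.65) and CFLOG010468.1 by -0.10 (-0.71 to 0.51). Differences within these intervals remain possible. The intervals are on the scale with 1 added, which understates ratios of such low values. With a pseudocount of 0.1 the difference of CFLOG015738.2 was -1.68 (limma adjusted p = 0.11). For those 3 genes the late pupa minor libraries overlapped with or enclosed the late pupa major libraries. For CFLOG015738.2 both late pupa major libraries, 0.535 and 0.271, lay below both late pupa minor libraries, 1.21 and 1.74. The share of all genes with or without such an overlap was not counted, so nothing is read from either. In all 4 genes late pupa minor replicate 2 was the higher of its pair, as it was for 59.9% of the genes with an even early level, and the sign of the caste difference of CFLOG005529.2, CFLOG008447.2 and CFLOG010468.1 turned with the late pupa minor library left out.

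Nor did the test separate male from minor. It called 0 of the 4 genes between male and minor (limma, 0 also at an unadjusted p under 0.05), where 4.81% of all genes passed as higher in male and 6.77% as lower (511 and 719 genes, against 1221 and 106 on the deposited scale). With only 1 male library, its spread was assumed to equal that of the replicated groups, and these values hold no spread between males. CFLOG015738.2 stood at 0.162 in male and at 0.0374 on average in minor, a log2 difference of 0.16 ± 0.49 (interval -0.90 to 1.23), in which the added 1 leaves little of the ratio of such low values. The differences of the other 3 genes lay between -0.24 (CFLOG008447.2, interval -0.97 to 0.50) and 0.21 (CFLOG005529.2, interval -0.66 to 1.09). On the deposited scale none (0) of the 4 passed the test either, and the differences were 1.00 for CFLOG005529.2 (limma adjusted p = 0.28), 0.67 for CFLOG010468.1 (0.39), 0.28 for CFLOG015738.2 (0.81) and 0.11 for CFLOG008447.2 (0.92).

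A drop to a low level in all late groups was rare. Of the 4951 genes with an even early level, 115 (2.32%) lay at least 1.5 below their lowest early mean in at least 1 late group, and the 4 genes are the 0.0808% that did so in all 4. The count of 115 was 211 without minor replicate 1. It was 69 without the male library, where the male group itself drops out of the count. Most of the 115 were low in adults alone, namely 46 in male alone, 33 in minor alone and 10 in both. Both late pupa groups were low in 10 genes, the 4 among them. Another 7 genes were low in 3 of the 4 late groups, 4 of them in all but late pupa major and 3 in all but minor. Without the demand for an even early level 15 genes had a gap of at least 1.5, so 11 such genes were left out for a wider early span. The opposite pattern, a level at least 1.5 above the highest early mean in every late group, was met by 35 genes. These were counted among all 16632 CFLOG genes with an early span under 1.5, with no demand on the early level. None (0) of the 359 rows with the prefix XLOC met the rule.

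**Figure D3:**
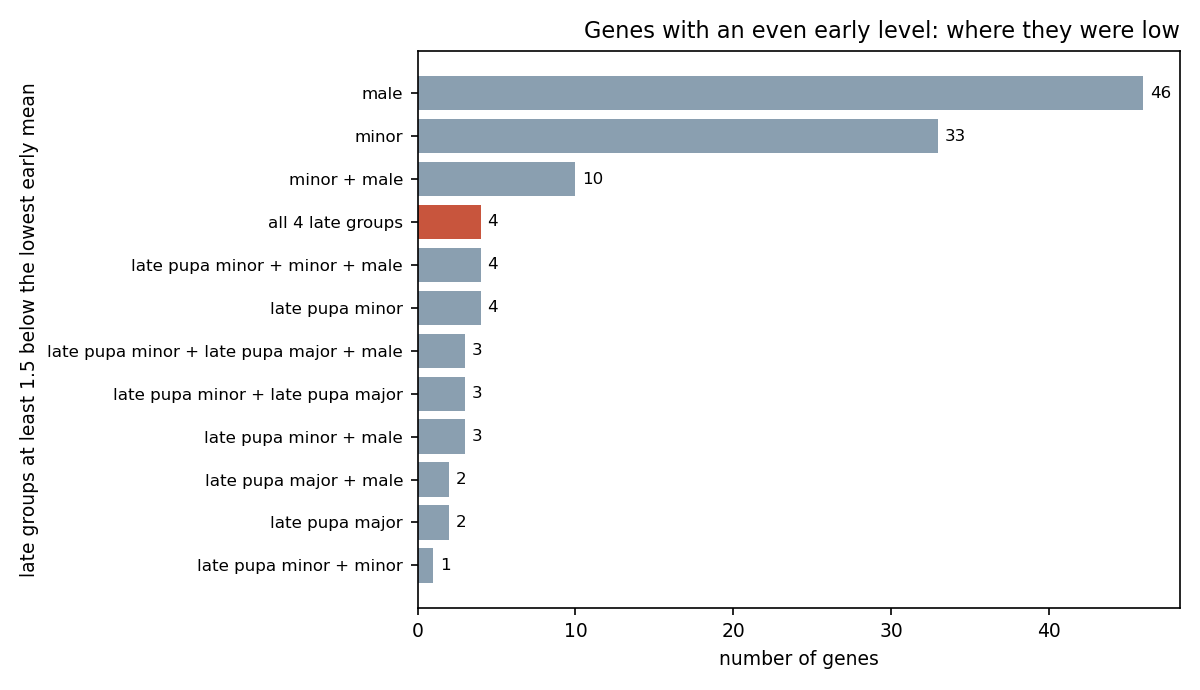
Number of genes with an even early level that lay at least 1.5 (log2) below their lowest early mean, by the late groups in which they did so. The 4 genes low in all late groups are in red, and the 2 longest bars are male alone with 46 and minor alone with 33.

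The edge of the rule was not empty. CFLOG010468.1 and CFLOG008447.2 passed with the smallest gaps, 1.55 and 1.66. CFLOG006827.1 missed the gap by the least, at 1.48. It averaged 6.07 in early pupa, its lowest early group, and 1.51 in late pupa major, its highest late group, in rescaled RPKM. CFLOG008153.1 came next at 1.33, with 8.28 in instar 4 larva and 2.53 in late pupa major. Among the genes with an even early level, 15 had a gap of 1 to under 1.5 and 63 one of 0.5 to under 1, and the median gap was -0.76.

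**Figure D4:**
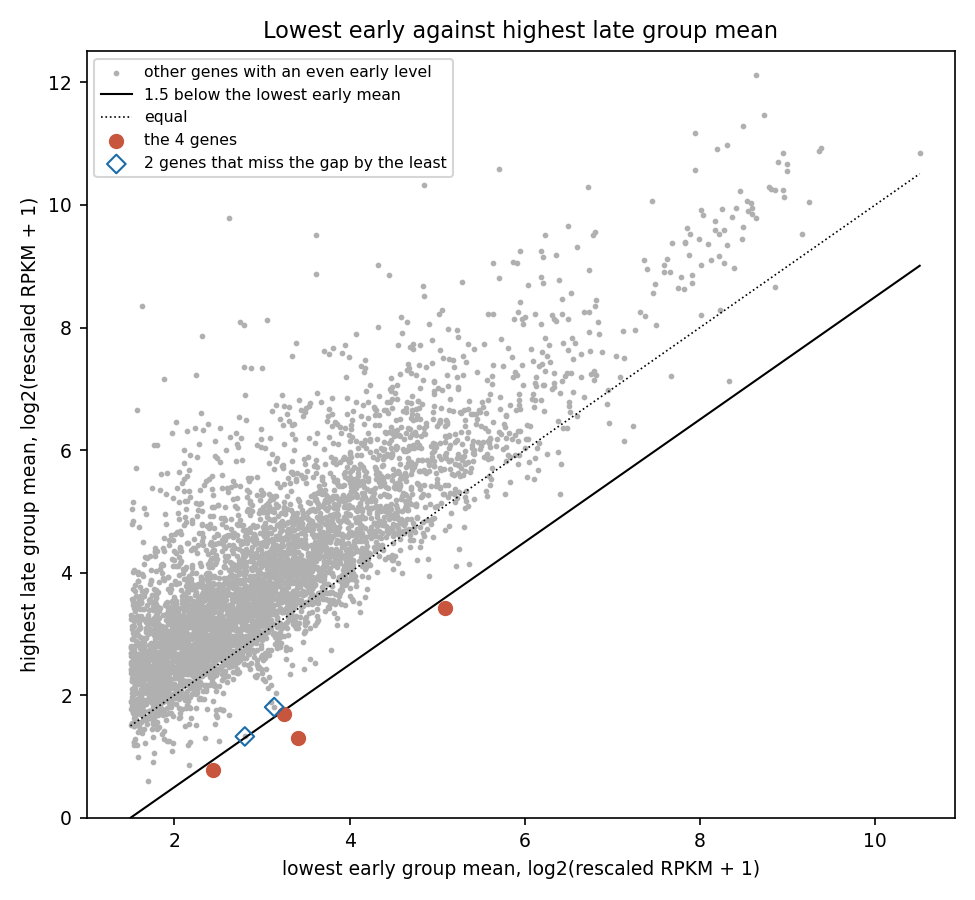
Lowest early group mean (x axis) against highest late group mean (y axis), both as log2(rescaled RPKM + 1), for the 4951 genes with an even early level. The 4 genes, in red, are the ones on or below the solid line, 1.5 under the lowest early mean, and the open diamonds just above it are CFLOG006827.1 and CFLOG008153.1.

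Leaving out 1 library of the 15 moved genes across that edge. CFLOG015738.2 met the rule in 14 of 15 such cases, CFLOG008447.2 and CFLOG010468.1 in 13 and CFLOG005529.2 in 12. Without late pupa minor replicate 1, the lower library of its pair, only CFLOG015738.2 remained, and the gap of CFLOG010468.1 was 1.14. Without late pupa major replicate 2 the gaps of CFLOG005529.2 and CFLOG008447.2 were 1.47 and 1.40. CFLOG005529.2 also missed at 1.43 without instar 4 larva replicate 2, and CFLOG010468.1 at 1.41 without early pupa replicate 2. CFLOG015738.2 missed only without early pupa replicate 1, where its early span was 1.54. CFLOG006827.1 came in without early pupa replicate 1 (gap 1.67) or late pupa major replicate 2 (1.54), and CFLOG008153.1 without instar 4 larva replicate 1 (1.73).

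**Figure D5:**
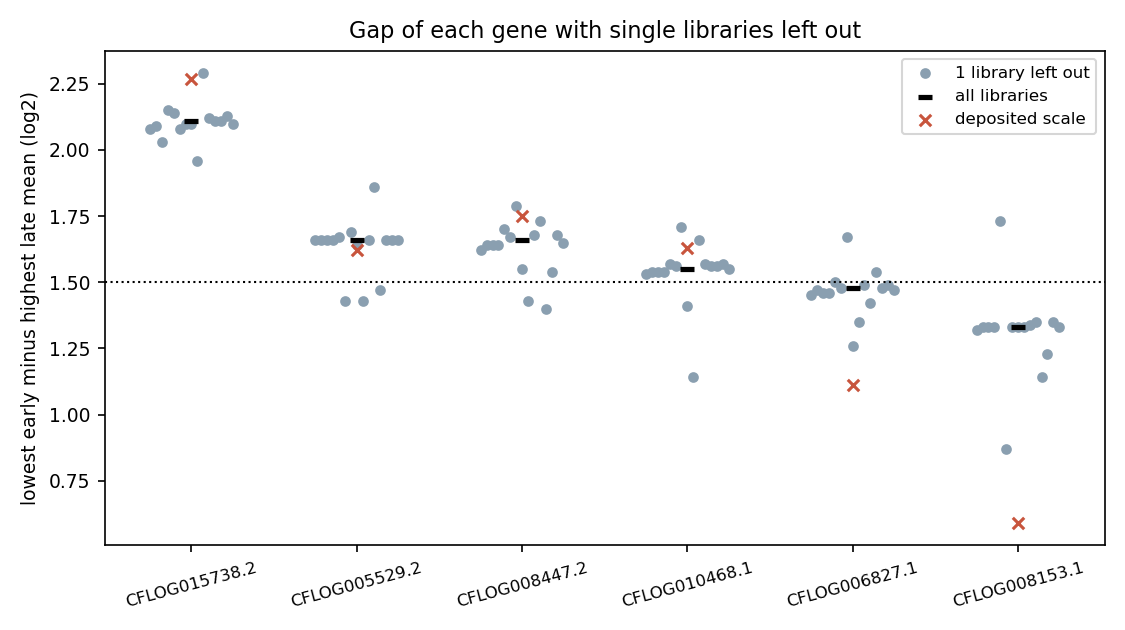
Gap between the lowest early and the highest late group mean (log2) for the 4 genes and the 2 that missed it by the least. Grey points leave out 1 library each, black bars use all libraries, red crosses use the deposited scale and the dotted line is 1.5. The gap of CFLOG015738.2 stays between 1.96 and 2.29 with single libraries left out, while that of each other gene crosses the line.

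The drop was present on the deposited scale too, but the even early level was not. Without rescaling, the gaps of the 4 genes were 2.27 for CFLOG015738.2, 1.62 for CFLOG005529.2, 1.75 for CFLOG008447.2 and 1.63 for CFLOG010468.1. Their early spans were 1.72, 1.72, 2.09 and 2.02, all over 1.5, so 0 genes met the rule on that scale. CFLOG005529.2, at 101.5 and 64.0 RPKM in embryo, was at 13.9 and 40.2 RPKM in instar 4 larva. Embryo was the highest early group of all 4 genes on the deposited scale, and the lowest was instar 4 larva for CFLOG015738.2 and CFLOG005529.2 and early pupa for the other 2. The scale factors were 2.35 and 1.63 in embryo and 0.499 and 0.959 in instar 4 larva, so a gene at an even rescaled level differs between these libraries in deposited RPKM by construction. On neither scale did a late library of any of the 4 genes reach its lowest early library, which the choice of these genes made likely.

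In abundance and in recovered length the 4 genes lay at or above the middle of the genes with an even early level. Their means over the early libraries, between 8.45 and 35.8 rescaled RPKM, stood at the 50.1 to 90.1 percentile among the genes with an even early level. CFLOG008447.2 fell in the class under 10 rescaled RPKM, which held 2823 of those genes, and the other 3 in the class of 10 to 100, which held 1974. Together they took 0.000908% to 0.00366% of the RPKM total of the late libraries, and 0.0143% to 0.0605% of that of the early libraries. Their lengths, 1254 to 2178 nt and all multiples of 3, compare with a median of 1086 nt over the 11771 CFLOG genes with a recovered length and of 1176 nt over the genes with an even early level. Multiples of 3 made up 91.94% and 92.97% of the recovered lengths in these 2 sets, so nothing is read from that. The IDs of 3 of the 4 genes belong to the number series that ends in 2 after the point. So do 63.9% of the genes with an even early level and 44.8% of all CFLOG IDs. No source used here explains the 2 series.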

How the data were processed

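Per the labels' protocols, whole-body RNA was extracted with TRIzol, treated with DNase and made into dUTP strand-specific poly(A) libraries. The submitters' processing notes name STAR 2.5.0b and DESeq2 without a role. Genome build and annotation are not given, nor the counting method, in the sources used here. RPKM made by the authors for 18979 genes in 15 libraries form the deposited table, whose columns all map to samples. The 4 genes and all lists were chosen with earlier results of these data known.

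Scale factors are median ratios of a library to the genes' geometric means, over the 9763 CFLOG genes above 0 in every library. Group means are of log2(value + 1). Tests used limma 3.58.1 in R 4.3.3 with 1 term per group, all 15 libraries, eBayes with a trend, a filter of 1 rescaled RPKM in 2 libraries and Benjamini-Hochberg adjustment over all genes at 0.05, two-sided. The fit was tested on simulated data. A fold change on the log2(RPKM + 1) scale understates the change of low genes. Named are the 2 most abundant genes, the 2 of the widest and of the smallest gap, the 2 nearest misses, and at most 2 in each direction of each test, which together take in all 4. Reads and lengths were recovered from the RPKM steps (whole within 0.02 for values under 2000 reads, at least 8 such values a gene), and no count test was run. No pair of replicates was a repeat of one library (median chi-square per gene 2.81 to 8.57). Near-identical copies and overlapping models could not be looked up.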

Additional observations from a re-analysis of the deposited data

How the results depend on the processing

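The number of genes that met the rule, 4, was 0 on the deposited scale, 9 with a pseudocount of 0.1 (all 4 among them), 21 with a gap of at least 1, 1 with a gap of at least 2 and 2 with a span under 1, and 4 with factors over all rows. It was 1 to 6 with single libraries left out, and 2 from the replicate 1 libraries and male alone as well as 2 from the replicate 2 libraries and male alone, each list sharing 1 gene with the 4. The 2 genes called lower in minor than in late pupa minor were 0 on the deposited scale, 0 with no filter, 1 with only the 7 late libraries in the fit, 3 with a pseudocount of 0.1 and 0 to 3 with single libraries left out. The other 2 comparisons called 0 of the 4 genes under every alternative run. Some uncalled differences changed sign. That of late pupa major against late pupa minor ran from -0.24 to 0.78 for CFLOG005529.2, from -0.25 to 0.34 for CFLOG008447.2 and from -0.52 to 0.32 for CFLOG010468.1 over single libraries left out, and for CFLOG008447.2 it was -0.23 when late pupa major replicate 1 was dropped. For CFLOG010468.1 it was 0.00 on the deposited scale. The difference of CFLOG008447.2 between minor and late pupa minor ran from -0.35 to 0.23 over single libraries left out (0.17 when minor replicate 1 was dropped), and that between male and minor was 0.11 on the deposited scale, where that of CFLOG005529.2 was 1.00 against 0.21. The cause of these changes was not tested. Replicate numbers did not pair the samples: the deviations of replicate 1 correlated at -0.358 to 0.232 between groups, over 0.1 in 4 of 21 pairs. With the replicate number as a block, CFLOG015738.2 and CFLOG005529.2 again passed as lower in minor (adjusted p = 0.029 and 0.047, limma), and 0 genes of the 4 were called in the other 2 comparisons. Over all genes, the counts of male against minor were 246 higher and 365 lower under the block, and 29 higher and 60 lower with only the 7 late libraries in the fit. In that last fit late pupa major against late pupa minor called 0 genes (limma, 1607 at an unadjusted p under 0.05). With a pseudocount of 0.1 that comparison called 13 higher and 17 lower, and on the deposited scale 30 and 16, against 92 and 64. The 115 genes low in at least 1 late group were 108 on the deposited scale and 228 with a pseudocount of 0.1. Single libraries moved the counts over all genes too. Late pupa major against late pupa minor called 12 higher and 14 lower when late pupa major replicate 2 was dropped, and 190 and 182 when late pupa minor replicate 2 was. Male against minor called 1063 higher and 1708 lower when minor replicate 1 was dropped, and 112 and 140 when minor replicate 2 was. Minor against late pupa minor called 1140 higher and 717 lower when minor replicate 2 was dropped. Depth limits the lowest values: CFLOG015738.2 in minor rests on 3 reads.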
